A study of Mus musculus with 9 samples.

Results

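The RNAseq data of the adult male submandibular gland (SMG) were read for 40 genes of the secretory granule and exocytosis machinery. They were chosen by name as Rab GTPases of secretion and their effectors, SNAREs and SNARE regulators, synaptotagmins, prohormone convertases and granins. The rule that picks them goes by gene name. Earlier results of these data were known when the genes were chosen, so no count over them is independent support. All 40 had a row in the unfiltered count table, 39 of them had a row among the 17562 of the filtered tables, and 35 had enough reads to be tested, among 13842 tested genes in all. The groups were 4 wildtype (WT) male mice and 5 male mice without *Hs3st3a1* and *Hs3st3b1* (DKO), adult and on a C57BL/6 background, with 1 library per mouse. In the DKO, *Hs3st3b1* carries a knockout cassette and exon 1 of *Hs3st3a1* was disrupted with zinc finger nucleases. These genes encode enzymes that place 3-O-sulfate groups on heparan sulfate, and the alleles are germline, so every cell of the mouse lacks them. The study compared DKO mice with WT littermates. The exact ages, the litter of each mouse and the founder behind each DKO mouse are not given in the sources used here.

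Salivary gland cells store their secreted proteins in granules below the apical membrane and release them on stimulation. Rab GTPases and their effectors bring a granule to the membrane and hold it there, SNAREs on granule and membrane zip together to fuse the lipid bilayers, and Sec1/Munc18 and Munc13 proteins prepare the SNAREs for fusion. Acinar cells and the granular convoluted ducts, which are prominent in male mice and store Egf and kallikreins, both secrete in this regulated way. Convertases and granins belong to the granules of endocrine cells and neurons, while Furin works in the trans-Golgi network of nearly all cells.

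The deleted genes were read first. *Hs3st3a1* had 7, 3, 14 and 9 reads in WT 1 to 4 and 0 in every DKO library, and *Hs3st3b1* had 67 to 216 reads in WT and 7 to 45 in the DKO. Reads of the neomycin cassette numbered 10 to 34 in the DKO libraries and 0 in the WT libraries. Total counts were 20653492 to 37870517 in WT and 17053746 to 34683690 in the DKO. Values below are CPM, the counts of a gene scaled to the TMM-adjusted library size, where TMM is edgeR's scaling between libraries, and a fold change is DKO over WT.

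Markers of the cell types of the gland differed between the libraries. The summed level of 5 acinar markers was 129458 to 200437 CPM in WT and 208407 to 350270 CPM in the DKO, and all 5 were on average higher in the DKO, with 1 whose groups did not overlap. The sum of 4 granular duct markers was 37508 to 69420 CPM in WT and 15871 to 31488 CPM in the DKO, where *Egf*, *Klk1b3* and *Klk1b26* were lower in every DKO library than in any WT library and *Klk1* was on average higher. The 5 myoepithelial markers summed to 595.6 to 945.9 CPM in WT and 228.6 to 536.5 CPM in the DKO. In bulk RNA, fewer cells of a type and less RNA per cell cannot be told apart, which holds for every difference below. DKO 1 stood apart with parotid markers: *Bpifa2* was at 7431 CPM there against 43.3 to 79.1 CPM in the other 4 DKO libraries and 4.42 to 26.5 CPM in WT. The 4 parotid markers summed to 8069 CPM in DKO 1, 57.5 to 92.1 CPM in the other DKO libraries and 24.4 to 48.4 CPM in WT. Without DKO 1, *Bpifa2* was still higher by DESeq2 (log2 fold change 1.998, adjusted p = 0.0275) but not by edgeR (adjusted p = 0.0945). *Amy1* then went the other way, at 7.10 to 14.1 CPM in DKO 2 to 5 and 17.3 to 25.5 CPM in WT. Its log2 fold change without DKO 1 was -0.861 (adjusted p = 0.0103 in DESeq2 and 0.0975 in edgeR). The other 2 parotid markers were under 1 CPM in all libraries. Because of its parotid markers, results that rest on DKO 1 are also given without it. Sublingual markers varied in both groups. The 4 summed to 135.5 CPM in DKO 4, 105.7 CPM in DKO 1 and 58.0 CPM in WT 3, and to 0.55 to 31.9 CPM in the other libraries.

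Most of the exocytosis genes had log2 fold changes within 0.5 of 0, but this was a smaller share than among all genes. Of the 35 tested, 19 were on average higher and 16 lower in the DKO, the median log2 fold change was 0.03, and 25 lay within 0.5 of no change. Over all 13842 genes, the median was 0.02 and 86.2% lay within 0.5, against 71.4% of the exocytosis genes. The 10 outside this range lay on both sides, *Snap23*, *Unc13b*, *Pcsk6*, *Sytl5* and *Stx3* below it and *Rab3b*, *Rab26*, *Scg2*, *Snap25* and *Snph* above it. Inside it lay also *Rab3d* (0.48) and *Furin* (-0.36), whose groups did not overlap. Of the genes that passed in edgeR or DESeq2, the SNARE *Snap23*, the priming factor *Unc13b* and the syntaxin *Stx3* were lower in the DKO. The granule Rabs *Rab3d* and *Rab26* and the low-count gene *Snph* were higher. Only *Snap23* and *Snph* passed in both tools, and the groups of *Stx3* and *Rab26* overlapped.

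With edgeR's quasi-likelihood test and Benjamini-Hochberg adjustment over all tested genes, 2 of the 35 passed an adjusted p of 0.05 (5.71%), *Snap23* lower and *Snph* higher. Over all tested genes, 0.629% were called, 23 higher and 64 lower. DESeq2, the tool named in the study's methods, called 6 of the 34 to which it gave an adjusted p (17.6%), with *Rab3d*, *Rab26* and *Snph* higher and *Stx3*, *Snap23* and *Unc13b* lower. Its share over all genes was 4.55%, 245 higher and 372 lower. At an unadjusted edgeR p below 0.05 there were 10 of 35 (28.6%), 5 in each direction, against 14.5% of all genes. The WT and DKO ranges did not overlap for 5 of 35 (14.3%), namely *Rab3d*, *Snap23*, *Unc13b*, *Snph* and *Furin*, against 6.0% of all genes. Of the 35 tested genes, 32 reached the level asked by the filter on low counts in every WT library. The other 3 were *Snap25*, *Syt7* and *Snph*, and *Snph* reached it in 1 WT library and in all 5 DKO libraries. *Snph* therefore entered the test through the group in which it was high. *Snap25* and *Syt7* each reached the level in 2 WT and 3 DKO libraries, and would not have passed without the DKO libraries. *Snap25*, on average higher in the DKO, and *Snph* are both among the 10 genes at an unadjusted p below 0.05. Without *Snph*, edgeR called 1 of 34, DESeq2 5 of 33, and the ranges did not overlap for 4 of 34. Without DKO 1, edgeR called 0 of the 35 and DESeq2 called 5, which were *Rab3d*, *Rab26*, *Snap23*, *Unc13b* and *Snph*.

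**Figure D1:**
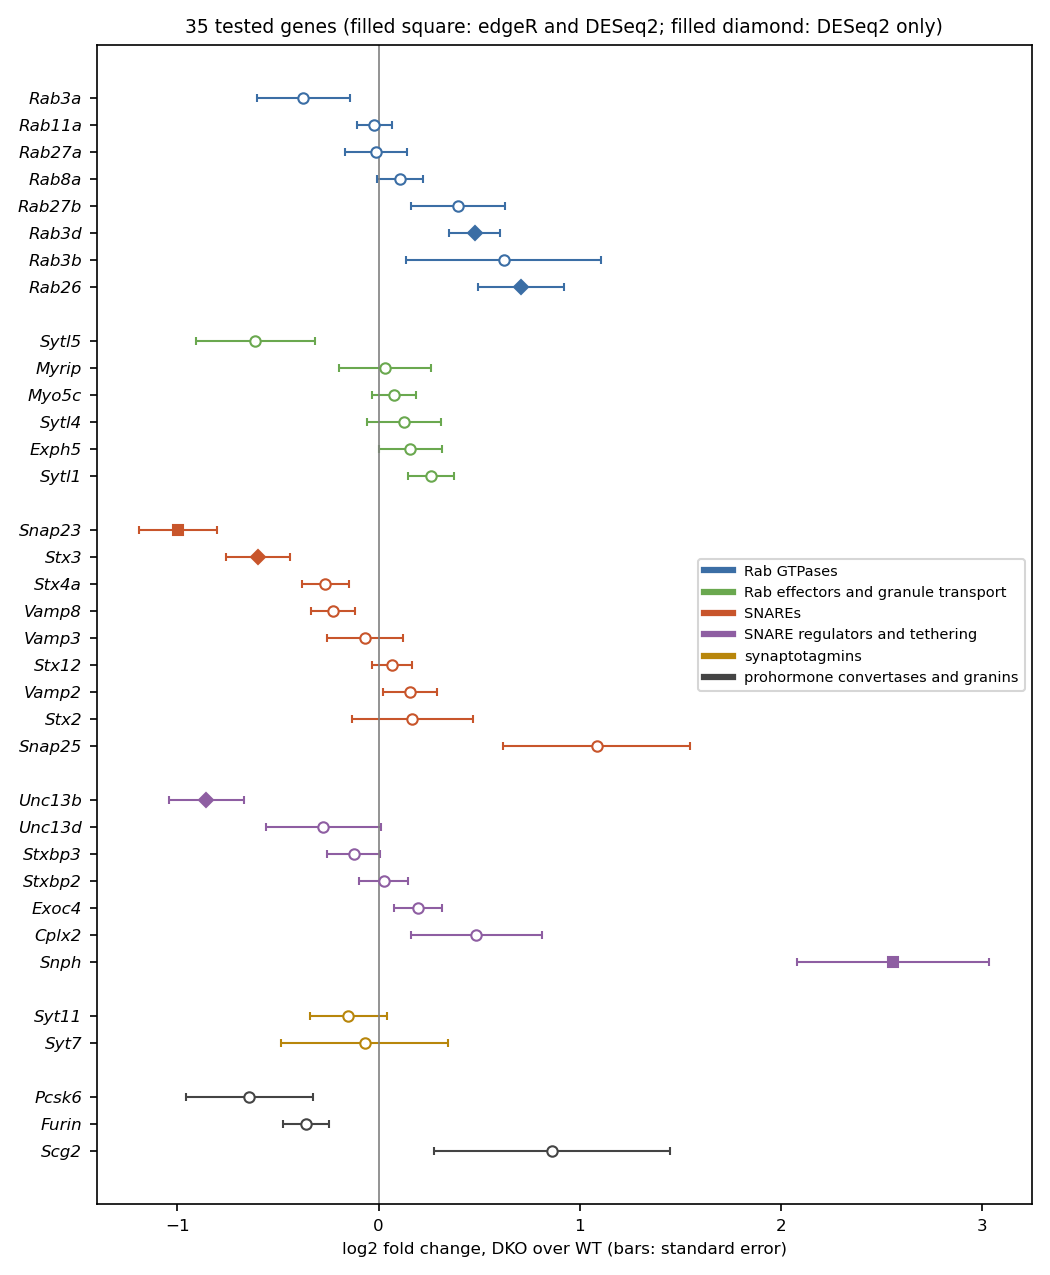
The log2 fold change of DKO over WT (x axis, edgeR) is drawn for the 35 tested exocytosis genes, grouped by role in colours, with bars for the standard error. Filled squares passed in edgeR and DESeq2 and filled diamonds in DESeq2 alone. Most points lie near 0, with *Snap23* at -0.997 and *Snph* at 2.56 as the lowest and the highest.

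The promoters of 5 of the 6 genes called by edgeR or DESeq2 are shown so that their start regions can be compared, *Snap23*, *Unc13b* and *Stx3* as lower genes and *Rab3d* and *Snph* as higher ones. Each sequence covers 250 bases before and 50 after the RefSeq start site (GRCm38.p6), 5′ to 3′ on the strand of the gene. Capitals mark CANNTG (the E-box), GGGCGG (the GC box), CCAAT, the TATA box TATAAA, and AGAACA (part of the androgen receptor site), each searched on both strands, and CAGCTG and CATATG were counted separately as forms of the E-box. *Snap23* lies at chr2:120567421-120567720 on the plus strand, *Unc13b* at chr4:43058703-43059002 on the plus strand, *Stx3* at chr19:11819354-11819653 on the minus strand, *Rab3d* at chr9:21918134-21918433 on the minus strand and *Snph* at chr2:151632544-151632843 on the minus strand.
Snap23: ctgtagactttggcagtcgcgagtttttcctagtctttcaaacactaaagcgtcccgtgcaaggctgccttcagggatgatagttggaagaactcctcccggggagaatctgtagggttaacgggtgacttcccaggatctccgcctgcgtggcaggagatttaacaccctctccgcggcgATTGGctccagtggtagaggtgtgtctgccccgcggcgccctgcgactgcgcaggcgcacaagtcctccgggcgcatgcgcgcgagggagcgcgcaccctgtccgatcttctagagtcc
Unc13b: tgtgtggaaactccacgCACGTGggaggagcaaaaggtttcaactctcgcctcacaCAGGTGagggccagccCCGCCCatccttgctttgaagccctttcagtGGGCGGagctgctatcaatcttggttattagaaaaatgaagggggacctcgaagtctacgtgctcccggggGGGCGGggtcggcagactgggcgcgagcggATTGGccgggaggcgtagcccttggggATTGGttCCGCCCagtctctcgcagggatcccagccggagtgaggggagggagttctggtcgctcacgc
Stx3: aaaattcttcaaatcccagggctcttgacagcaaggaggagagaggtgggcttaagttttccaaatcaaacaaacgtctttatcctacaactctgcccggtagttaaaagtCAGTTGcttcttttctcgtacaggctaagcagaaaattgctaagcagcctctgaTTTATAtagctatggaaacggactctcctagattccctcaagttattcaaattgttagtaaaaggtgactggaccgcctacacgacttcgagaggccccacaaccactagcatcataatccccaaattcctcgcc
Rab3d: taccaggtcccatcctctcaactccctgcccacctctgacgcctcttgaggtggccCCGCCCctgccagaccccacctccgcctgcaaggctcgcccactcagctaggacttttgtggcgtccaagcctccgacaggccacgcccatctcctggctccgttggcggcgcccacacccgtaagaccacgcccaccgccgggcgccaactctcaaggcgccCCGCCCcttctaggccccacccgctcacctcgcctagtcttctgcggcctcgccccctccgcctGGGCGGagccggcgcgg
Snph: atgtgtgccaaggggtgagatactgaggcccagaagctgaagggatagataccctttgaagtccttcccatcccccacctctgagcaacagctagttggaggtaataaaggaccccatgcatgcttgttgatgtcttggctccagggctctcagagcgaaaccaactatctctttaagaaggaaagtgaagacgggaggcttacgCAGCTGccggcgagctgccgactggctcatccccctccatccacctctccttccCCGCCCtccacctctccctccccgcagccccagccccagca

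The share of G and C was 44.0% in *Stx3*, 57.7% in *Snph*, 60.3% in *Snap23*, 62.0% in *Unc13b* and 71.0% in *Rab3d*. The *Unc13b* window held 4 GC boxes, 2 CCAAT boxes and 2 E-boxes, whereas that of *Snap23* held 1 CCAAT box, 69 bases before the start, and none of the other motifs. The *Stx3* window held 1 E-box and 1 TATAAA, with first bases 139 and 85 bases before the start, and that of *Rab3d* held 3 GC boxes and no E-box. The *Snph* window held a CAGCTG 45 bases before the start and 1 GC box. No RefSeq window was found for *Rab26*, the called gene not shown. RefSeq windows were found for 32 of the 40 genes, 37 windows in all. Of these, 70.3% held a CANNTG, 29.7% a CAGCTG, 2.7% a CATATG, 56.8% a GGGCGG, 43.2% a CCAAT, 16.2% a TATAAA and 8.11% an AGAACA. The shares over all 32851 promoter windows of this length were 72.3%, 16.3%, 3.91%, 35.7%, 37.4%, 13.6% and 19%. No test was run on these shares.

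Levels differed widely between the genes. On the scale of CPM per kb of exon, with exon lengths from GENCODE M21 (GRCm38), the WT means ran from 123.5 for *Vamp8*, the SNARE of exocrine granules, and 122.9 for *Rab27a*, a GTPase that docks granules, down to 0.0124 for *Pcsk1*. The ranges of *Vamp8* (112.5 to 141.9) and *Rab27a* (87.0 to 154.1) overlapped, so their order is not set by these libraries. *Rab3d* followed at 48.1 (42.3 to 51.5), then *Stxbp2* at 28.5 (23.0 to 33.3), *Rab3a* at 24.6 (22.4 to 26.0), *Rab8a* at 18.9 (17.0 to 19.9) and *Snap23* at 18.7 (12.4 to 24.8). The range of *Snap23* overlapped those of *Stxbp2*, *Rab3a* and *Rab8a*, and that of *Rab3a* overlapped *Stxbp2*. Genes known from neurons and endocrine cells spanned most of this scale, from *Rab3a* over *Scg2* (1.93), *Cplx2* (1.125) and *Scg5* (0.256) to *Chga* (0.118), *Syt7* (0.0597), *Snap25* (0.054), *Snph* (0.0444), *Syt1* (0.0248) and *Pcsk1*.

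**Figure D2:**
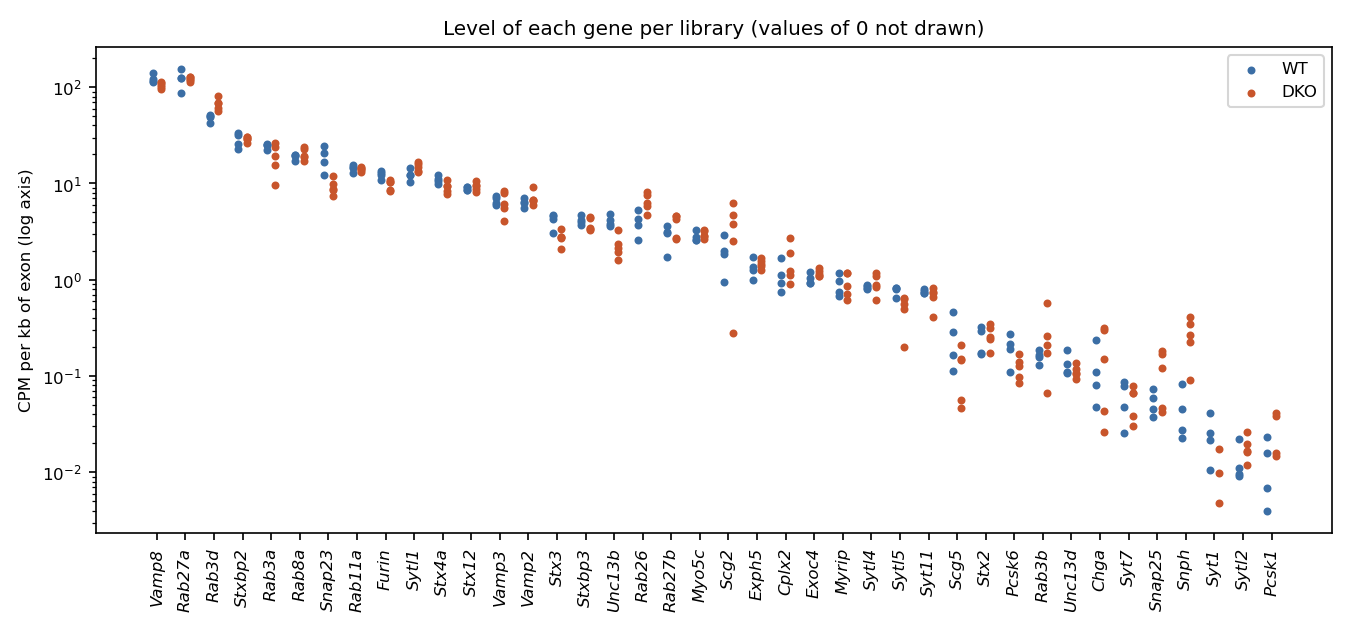
Each point is the level of 1 gene in 1 library in CPM per kb of exon (y axis, log scale), for the 40 genes in order of their WT mean, WT in blue and DKO in orange, with values of 0 not drawn. *Vamp8* and *Rab27a* stand at the top, and all DKO points of *Unc13b*, *Snap23* and *Snph* lie to the same side of the WT points, narrowly so for the nearest libraries of *Snap23* and *Snph*.

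Among the 8 Rab GTPases, which carry granules to the membrane and tether them, 5 were on average higher and 3 lower (median log2 fold change 0.25), 0 were called by edgeR and 2 by DESeq2. *Rab3d* (ENSMUSG00000019066, chr9:21907491-21918192, minus strand), a Rab3 of exocrine granules, was at 178, 216, 205 and 209 CPM in WT 1 to 4 and at 284, 252, 341, 238 and 290 CPM in DKO 1 to 5. Every DKO library lay above every WT library. The mean was 202 ± 16.8 CPM over the 4 WT and 281 ± 39.9 CPM over the 5 DKO libraries (mean ± SD), which gave a log2 fold change of 0.48 (SE 0.13) with an adjusted p of 0.0923 in edgeR and 0.00761 in DESeq2, and without DKO 1 of 0.143 and 0.0285.

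*Rab26* (ENSMUSG00000079657, chr17:24527241-24534210, minus strand) is a Rab of acinar granules and a known target of the acinar factor Bhlha15. Its level was 7.41, 15.3, 10.5 and 12.3 CPM in WT and 16.6, 17.7, 23.5, 13.6 and 21.8 CPM in the DKO. DKO 4 lay within the WT range and the other 4 DKO libraries above it. Its log2 fold change of 0.71 (SE 0.21) had an adjusted p of 0.138 in edgeR and 0.0344 in DESeq2. In the annotation, 9.36% of its exon bases are shared with *Traf7* on the same strand, and the counts there cannot be assigned with certainty. The summed acinar markers were higher in every DKO library than in any WT library, as *Rab3d* was and *Rab26* was not. Of the 5 markers, *Pip* alone showed this by itself. The part of these markers in the levels of *Rab3d* and *Rab26* was not tested.

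*Rab27a* (ENSMUSG00000032202, chr9:73044854-73097629, plus strand) had the highest CPM of the Rabs, with 337, 489, 483 and 598 CPM in WT and 439, 498, 459, 471 and 496 CPM in the DKO. All DKO libraries lay inside the WT range. Its log2 fold change was -0.01 (SE 0.15) with an adjusted p of 0.984 in edgeR. The other 5 Rabs did not pass the test in either tool. *Rab27b*, which acts with *Rab27a*, had a log2 fold change of 0.40 (SE 0.23), *Rab3a*, a Rab of synaptic vesicles, of -0.37 (SE 0.23), and *Rab3b* of 0.62 (SE 0.48) at under 2.1 CPM in every library. *Rab11a* of recycling endosomes (-0.02, SE 0.09) and *Rab8a* of transport from the Golgi (0.11, SE 0.11) were measured with less error.

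The 7 effectors and transport genes link Rab27 or Rab11 to the cytoskeleton and the membrane. Of them 6 were tested, 5 on average higher and 1 lower (median log2 fold change 0.10), and neither edgeR nor DESeq2 called any. At an unadjusted p below 0.05, edgeR gave 1. This was *Sytl1* (ENSMUSG00000028860, chr4:133253090-133263113, minus strand), a synaptotagmin-like protein that binds Rab27, at 26.3, 36.3, 31.0 and 31.0 CPM in WT and 33.8, 40.3, 37.2, 33.3 and 41.9 CPM in the DKO. The groups overlapped, with WT 2 above 2 of the DKO libraries, and the log2 fold change was 0.26 (SE 0.12, unadjusted p = 0.0459, adjusted p = 0.333 in edgeR). *Exph5* (0.16, SE 0.16), *Sytl4* (0.13, SE 0.19), the motor *Myo5c* (0.08, SE 0.11) and *Myrip*, which joins Rab27a to myosin (0.03, SE 0.23), had log2 fold changes within about 1 standard error of 0. *Sytl5* stood at -0.61 (SE 0.30) with under 2 CPM in each library. *Sytl2* had 3 to 8 reads per library and was not tested.

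The 9 SNAREs form the fusion complexes, and 4 were on average higher and 5 lower (median log2 fold change -0.07). *Snap23* was called by both tools and *Stx3* by DESeq2 alone. *Snap23* (ENSMUSG00000027287, chr2:120567671-120601255, plus strand) encodes the membrane SNARE that in most non-neuronal cells pairs with syntaxins 3 and 4. It was at 106, 53.2, 89.1 and 72.1 CPM in WT 1 to 4 and at 37.7, 31.8, 36.8, 51.8 and 42.8 CPM in DKO 1 to 5. The groups did not overlap, although the lowest WT library (WT 2) and the highest DKO library (DKO 4) were close. WT averaged 80.2 ± 22.8 CPM (SD, 4 mice) and the DKO 40.2 ± 7.58 CPM (SD, 5 mice), so the DKO was at 0.501 of the WT level. This was a log2 fold change of -0.997 (SE 0.193), with an adjusted p of 0.0478 in edgeR and 0.000329 in DESeq2. Without DKO 1 it was -0.97, with 0.0857 and 0.0023, and leaving out each library in turn gave -1.15 to -0.83, always lower in the DKO.

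*Stx3* (ENSMUSG00000041488, chr19:11775118-11819403, minus strand), the apical syntaxin of epithelial cells, was at 26.9, 17.5, 26.0 and 24.6 CPM in WT and at 15.7, 11.9, 15.9, 19.4 and 15.5 CPM in the DKO. WT 2 lay below DKO 4, and the other 4 DKO libraries lay below all of WT. EdgeR estimated a log2 fold change of -0.60 (SE 0.16), with an adjusted p of 0.093 in edgeR and 0.0221 in DESeq2, which became 0.148 and 0.0569 without DKO 1. *Vamp8* (ENSMUSG00000050732, chr6:72385223-72390703, minus strand), the granule SNARE with the highest level, was at 328, 260, 270 and 284 CPM in WT and at 256, 222, 244, 234 and 263 CPM in the DKO. Of the DKO libraries 4 lay below all of WT and DKO 5 did not. This came to a log2 fold change of -0.23 (SE 0.11, adjusted p = 0.368 in edgeR). *Stx4a*, a syntaxin of the basolateral membrane, had a log2 fold change of -0.27 (SE 0.12, unadjusted p = 0.0436, adjusted p = 0.324 in edgeR).

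The remaining SNAREs did not pass the test. *Vamp2* (0.16, SE 0.14), *Vamp3* (-0.07, SE 0.19) and the endosomal *Stx12* (0.07, SE 0.10) were at 11.8 to 35.2 CPM in all libraries, and *Stx2* (0.17, SE 0.30) was at 0.773 to 1.604 CPM. *Snap25*, the neuronal relative of *Snap23*, went the other way from it at a very low level, with 0.258 to 0.497 CPM in WT and 0.29 to 1.23 CPM in the DKO (log2 fold change 1.08, SE 0.46, adjusted p = 0.307 in edgeR). Its counts ranged from 4 to 30 reads, and in DKO 4 and DKO 5 it was within the WT range.

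Of the 7 regulators and tethering genes, which prime SNAREs or hold vesicles at the membrane, 4 were on average higher and 3 lower (median log2 fold change 0.03). *Snph* was called by both tools and *Unc13b* by DESeq2 alone. *Unc13b* (ENSMUSG00000028456, chr4:43058953-43264871, plus strand), a Munc13 protein that opens syntaxin for priming, was at 86.2, 81.9, 111 and 95.1 CPM in WT and at 48.4, 44.0, 36.1, 75.6 and 54.0 CPM in the DKO. All DKO libraries lay below all WT libraries, with DKO 4 nearest to WT. WT averaged 93.5 ± 12.7 CPM (SD, 4 mice) and the DKO 51.6 ± 14.9 CPM (SD, 5 mice), 1.81 times as high in WT. The log2 fold change was -0.86 (SE 0.19), with an adjusted p of 0.0568 in edgeR, 0.00154 in DESeq2 and 0.0477 in limma-voom with quality weights. Without DKO 1 it was -0.83, with 0.0951 in edgeR and 0.008 in DESeq2.

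*Snph* (ENSMUSG00000027457, chr2:151590549-151632593, minus strand) encodes syntaphilin, known from neurons, where it binds syntaxin and anchors mitochondria in axons. It was at 0.179, 0.65, 0.354 and 0.215 CPM in WT 1 to 4, from 4, 17, 16 and 5 reads, and at 2.75, 1.77, 3.21, 0.712 and 2.10 CPM in DKO 1 to 5, from 94, 43, 70, 18 and 29 reads. The groups did not overlap, but DKO 4 and WT 2 were nearly equal. *Snph* passed the filter on low counts through the DKO libraries, and with so few WT reads the size of its change is uncertain. The log2 fold change was estimated at 2.56 (SE 0.48), with an adjusted p of 0.0478 in edgeR and 3.74e-05 in DESeq2, and without DKO 1 it was 2.43, with 0.0833 and 0.00048. The summed level of 8 neuron and nerve markers was 3.25 to 6.81 CPM in WT and 1.78 to 11.5 CPM in the DKO, 4 of them under 1 CPM in all libraries. This sum was lowest in DKO 4, where *Snph* was also the lowest of the DKO libraries. In DKO 1 and DKO 5 it was 5.51 and 5.66 CPM, inside the WT range, while *Snph* lay above all of WT there. The part of the neuron markers in the *Snph* level was not tested. None of the 4 tested neuron markers passed in edgeR or DESeq2.

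The other members of this role did not pass the test. *Stxbp2* (ENSMUSG00000004626, chr8:3630955-3643644, plus strand), the Munc18 partner of *Stx3*, was the most abundant, with 108, 138, 133 and 95.5 CPM in WT and 121, 121, 126, 110 and 126 CPM in the DKO. The DKO libraries all lay inside the WT range, and the log2 fold change was 0.03 (SE 0.12, adjusted p = 0.955 in edgeR). *Stx3* thus differed in DESeq2 while its partner did not pass, and the difference between these changes was not tested. *Stxbp3*, the Munc18 partner of syntaxin 4, had a log2 fold change of -0.12 (SE 0.13), the exocyst subunit *Exoc4* of 0.20 (SE 0.12), the complexin *Cplx2* of 0.49 (SE 0.33) and the Munc13 protein *Unc13d* of -0.28 (SE 0.29), the last at under 1 CPM in every library.

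**Figure D3:**
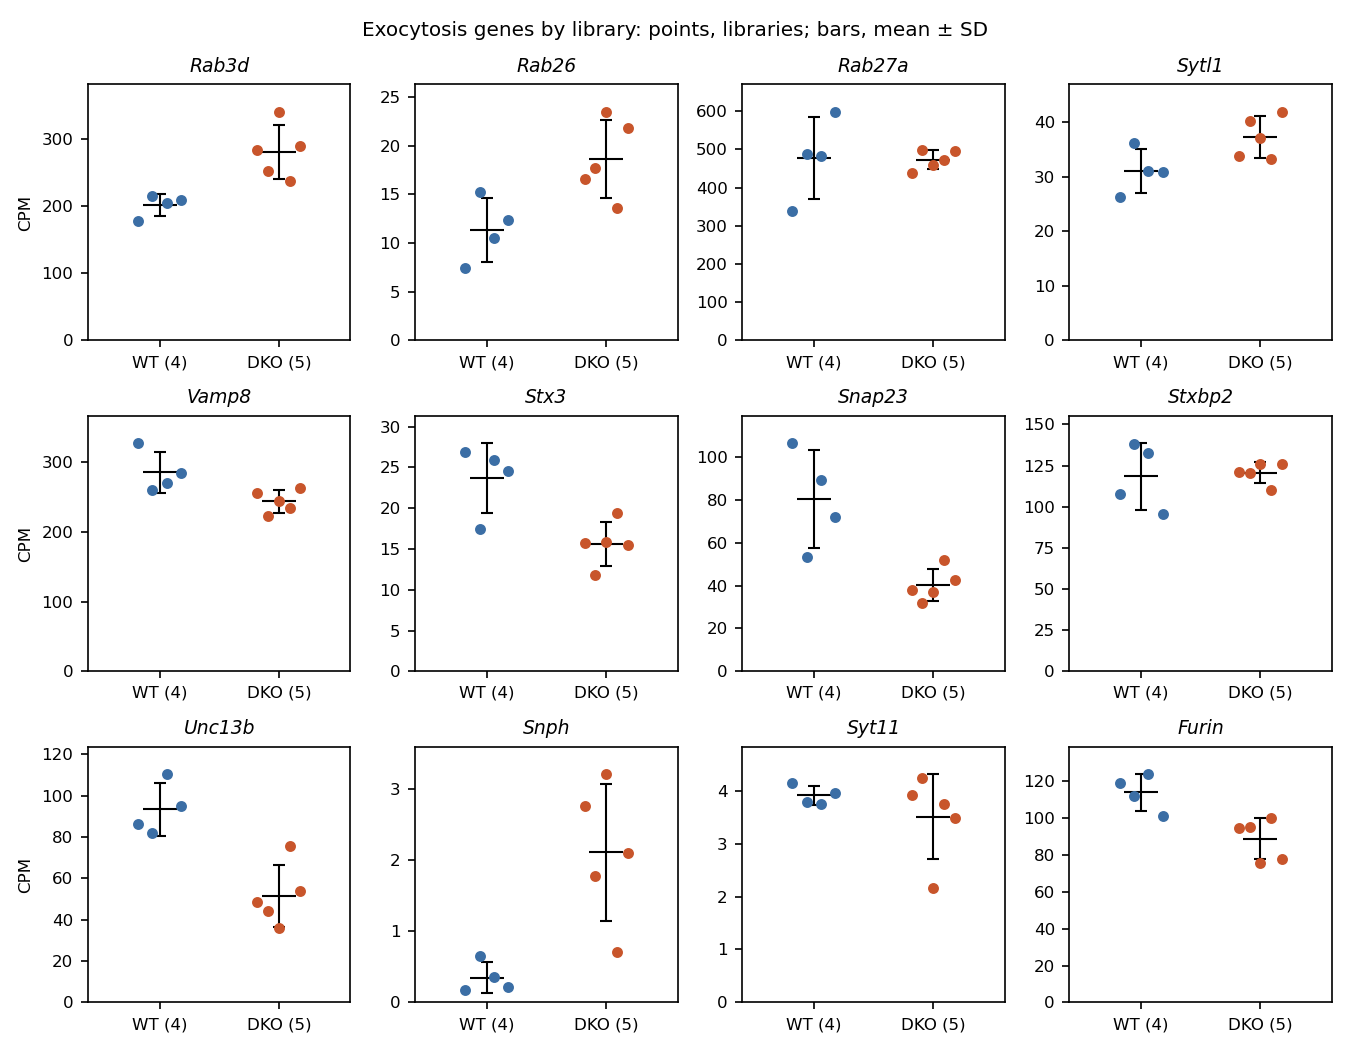
CPM (y axis, from 0) of 12 exocytosis genes, with 1 point per library for 4 WT (blue) and 5 DKO (orange) and bars for the mean and SD. The groups are apart for *Rab3d*, *Snap23*, *Unc13b*, *Snph* and *Furin*, and the DKO points of *Rab27a* and *Stxbp2* lie within the WT range.

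Of the 3 synaptotagmins, which are vesicle proteins and in part Ca2+ sensors, 2 were tested and neither edgeR nor DESeq2 called one. *Syt11* (ENSMUSG00000068923, chr3:88744700-88775164, minus strand), a member that does not sense Ca2+, was the most abundant, at 4.15, 3.79, 3.76 and 3.95 CPM in WT and 3.93, 4.24, 2.15, 3.76 and 3.48 CPM in the DKO. The groups overlapped, and DKO 3 was the lowest of all libraries. Its log2 fold change was -0.15 (SE 0.19, adjusted p = 0.793 in edgeR). *Syt7*, a sensor of slow exocytosis, was at 0.191 to 0.644 CPM (log2 fold change -0.07, SE 0.42, no adjusted p from DESeq2). *Syt1*, the fast sensor of neurons, had 4 to 9 reads in WT and 0 to 2 in the DKO and was not tested.

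Among the 6 convertases and granins, 3 were tested and neither tool called one. *Furin* (ENSMUSG00000030530, chr7:80388585-80405436, minus strand), the convertase of the constitutive pathway, was at 119, 112, 124 and 101 CPM in WT and at 94.5, 95.0, 75.8, 100 and 77.6 CPM in the DKO. The ranges did not overlap, but DKO 4 and WT 4 differed by less than 1 CPM. The log2 fold change was -0.36 (SE 0.12, unadjusted p = 0.00891), with an adjusted p of 0.168 in edgeR and 0.0676 in DESeq2. *Pcsk6*, a convertase of extracellular substrates, had a log2 fold change of -0.64 (SE 0.32) at 0.435 to 1.42 CPM.

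*Scg2*, the granin secretogranin II, was at 4.69, 7.30, 2.39 and 5.02 CPM in WT and 6.39, 9.50, 15.7, 0.712 and 11.8 CPM in the DKO. The DKO held both the highest libraries and, in DKO 4, the lowest, and the log2 fold change of 0.86 (SE 0.59, adjusted p = 0.569 in edgeR) was within this spread. The summed neuron markers were lowest in the same library but highest in DKO 2, where *Scg2* was not at its highest. Their part in the *Scg2* level was not tested. *Chga* had 1 to 28 reads, *Scg5*, the chaperone of a convertase, 1 to 19 reads and *Pcsk1* 0 to 5 reads per library, and these genes were not tested.

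The pathway beyond the 40 genes was read through a list of 120 further genes, of which 118 had a row and 88 were tested. In the DKO 51 of these were on average higher and 37 lower, with a median log2 fold change of 0.07. EdgeR called 2 (2.27%, against 0.629% of all genes) and DESeq2 6 (6.82%, against 4.55%). At an unadjusted edgeR p below 0.05 the share was 14.8%, against 14.5% of all genes, and 6.82% did not overlap between groups, against 6.0%. By these last measures the list was near the background, while its shares called by edgeR and DESeq2 lay above it. *Rph3al* (Noc2), a Rab3 and Rab27 effector of granule exocytosis, was at 30.1, 20.9, 29.4 and 19.1 CPM in WT and 12.6, 11.2, 7.01, 14.1 and 14.3 CPM in the DKO. Its groups did not overlap (log2 fold change -1.07, SE 0.21, adjusted p = 0.0478 in edgeR and 0.00031 in DESeq2). *Cpe*, the carboxypeptidase that trims peptides after convertases have cut them, was at 43.2, 24.1, 33.7 and 31.4 CPM in WT and 19.8, 13.9, 13.5, 18.02 and 16.7 CPM in the DKO. Again every DKO library lay below every WT library (-1.01, SE 0.17, adjusted p = 0.0478 in edgeR and 3.7e-05 in DESeq2). Without DKO 1, edgeR's adjusted p rose to 0.0833 for *Rph3al* and 0.0823 for *Cpe*, and DESeq2 still called them.

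DESeq2 alone called 4 more. The endosomal syntaxin *Stx7* was at 197 to 355 CPM in WT and 99.6 to 176 CPM in the DKO, and its groups did not overlap (log2 fold change -0.85, SE 0.20, adjusted p = 0.0625 in edgeR and 0.0024 in DESeq2). *Stxbp5l* (tomosyn-2), which binds syntaxin and slows fusion, had a log2 fold change of -1.05 (SE 0.29, adjusted p = 0.0133 in DESeq2), and 4 of 5 DKO libraries lay below all of WT. *Syt3* was higher, at 2.56 to 4.47 CPM in WT and 4.51 to 6.96 CPM in the DKO (0.72, SE 0.19, adjusted p = 0.0133 in DESeq2). *Syt16* varied most, at 16.3, 0.918, 9.72 and 3.48 CPM in WT and 0, 0.123, 0, 1.27 and 0.145 CPM in the DKO, and DKO 4 lay above WT 2. It reached the level of the filter on low counts in all 4 WT libraries and in 1 DKO library, so it entered the test through WT, with 0 to 32 reads in the DKO. DESeq2 gave an adjusted p of 0.0482, and no fold is given.

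The lower genes also varied among the libraries of 1 genotype. Within WT, replicate 2 had the lowest *Snap23*, *Stx3*, *Unc13b*, *Cpe*, *Stx7*, *Stxbp5l* and *Syt16* and also the lowest *Egf*, *Klk1b3* and *Klk1b26*. Within the DKO, replicate 4 had the highest *Snap23*, *Stx3*, *Unc13b*, *Stx7*, *Stxbp5l* and *Syt16* and the highest *Egf*, *Klk1b3* and *Klk1b26*, and was second in *Rph3al* and *Cpe*. The granular duct markers summed to 37508 CPM in WT 2 and 31488 CPM in DKO 4, the nearest values of the groups. The 5 myoepithelial markers showed the same order, each with its lowest WT value in replicate 2 and its highest DKO value in replicate 4, and their sums there were 595.6 and 536.5 CPM. Among the higher genes, *Rab3d*, *Rab26*, *Snph* and *Syt3* each had their lowest DKO value in replicate 4. The acinar markers also had their lowest DKO sum there, 208407 CPM, of which *Mucl2* made up 174468 CPM. *Lpo* was lowest in DKO 4 too, whereas *Aqp5*, *Bhlha15* and *Pip* had their lowest DKO value in DKO 1. The part of the duct, myoepithelial and acinar markers in these differences was not tested.

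**Figure D4:**
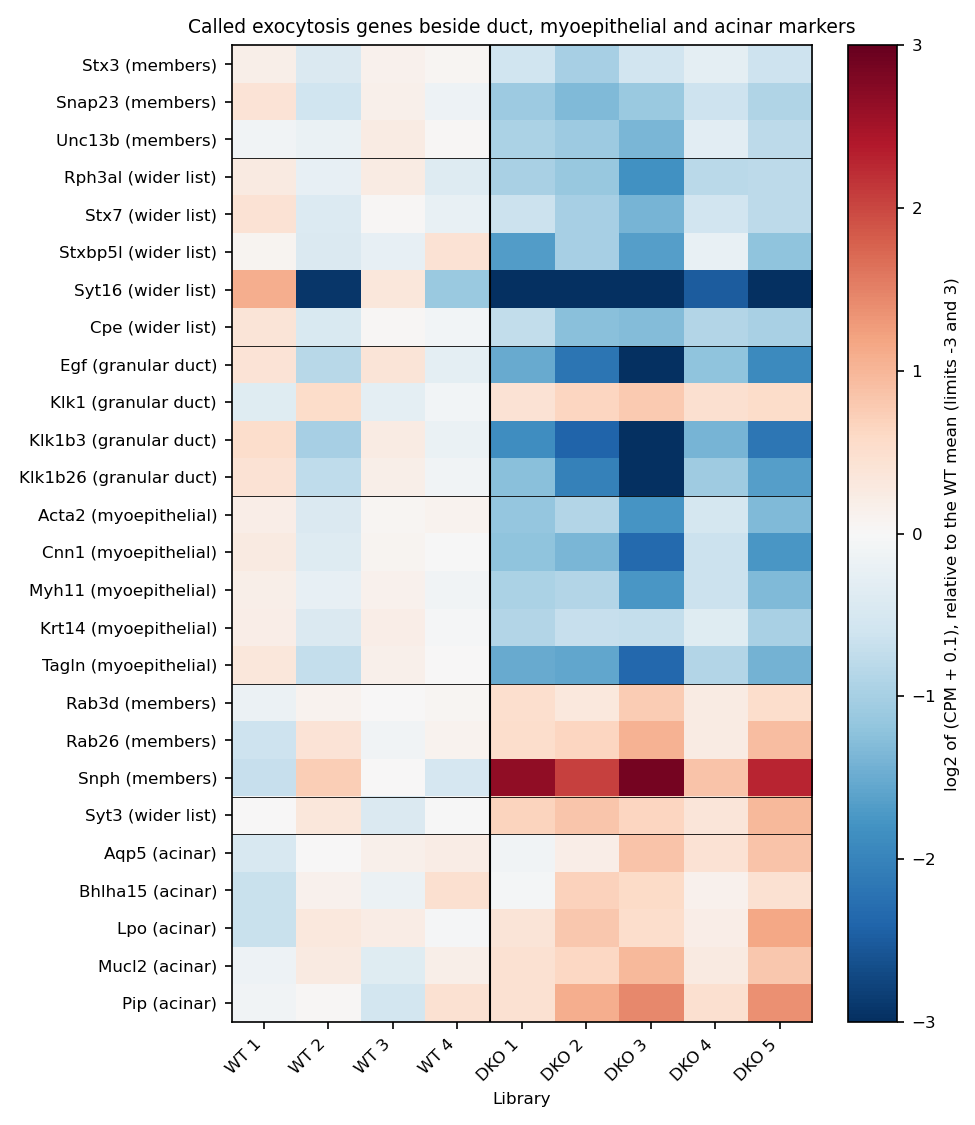
Colour gives log2 of CPM plus 0.1 relative to the WT mean, limited to -3 and 3, for genes called by edgeR or DESeq2 and for duct, myoepithelial and acinar markers (rows) in the 9 libraries (columns, WT left of the line). Among the DKO libraries most lower genes, 3 of 4 granular duct markers and the myoepithelial markers are palest in DKO 4, within WT most are lowest in WT 2, and *Klk1* and the acinar markers are on average higher in the DKO.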

How the data were processed

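Per the labels, total RNA of each SMG was made into an unstranded Nextera XT library and sequenced on a HiSeq2500. The submitters' processing notes name STAR 2.5.2a, DESeq2, edgeR and limma and the builds GRCm38, mm10 and GRCh38 without roles, and the counting tool, annotation and filter are not given in the sources used here. The authors deposited raw read counts on 48733 rows (17 transgene and 7 spike-in rows included), the same counts for 17562 rows left by a filter, and a signal table of TMM-scaled CPM. All 158058 deposited signal values (100%) gave back the whole filtered counts within 0.001 reads. Without strand, reads of overlapping genes cannot be told apart. No per-sample column was left unused (0).

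Here the unfiltered counts without spike-in rows were fitted in R 4.3.3 with edgeR 4.0.16 (TMM, filterByExpr with a minimum count of 10 and total of 15, legacy quasi-likelihood fit, genotype only, all 9 libraries). P-values were adjusted by Benjamini-Hochberg over 13842 genes, with 0.05 as threshold. DESeq2 1.42.0 (Wald test) and limma 3.58.1 (voom with quality weights) were run beside it, and the code was tested on simulated counts. Standard errors are the log2 fold change over the square root of F. Each library is 1 mouse, and the replicate numbers mark different mice. Sums and figures used Python 3.11.15 with pandas 2.3.3 and matplotlib 3.10.9. The genes, lists and markers were chosen with earlier results of these data known, so no count over them is independent support. Named in full were genes called by edgeR or DESeq2, those whose groups did not overlap and the most abundant of each role. *Scg2*, *Snap25* and *Stx4a* were added after their values were seen. Alternatives changed the scaling, tool, filter, table, block or libraries. Female libraries were not analysed here, and protein sequences were not used here. Of the marker and pathway genes listed, 2 are not reported here and were left out of the sums and counts over those lists.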

Additional observations from a re-analysis of the deposited data

Results flagged for a closer look

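Among the 36 groups of libraries of named genes that were searched for a library far from the others, 1 was found. Chance marks about 1 in 20 such groups if they are independent. These groups were read from the same libraries, so no conclusion is drawn from 1 in 36. *Syt16* in DKO 4 was at 1.265 CPM, while the other 4 DKO libraries lay between 0 and 0.145 CPM. The gap to its nearest neighbour was 0.885 of the range of the group. WT 2, at 0.918 CPM, lay below it.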

How the results depend on the processing

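*Snap23* and *Snph* sat close to the threshold in edgeR, so the calls moved with most settings while their directions did not. Against 2 calls among the exocytosis genes (1 higher, 1 lower) and 87 among all genes, edgeR with upper-quartile factors called 0 (0 higher, 0 lower) and 5, with total counts alone 4 (3 lower) and 357, without the filter on low counts 3 (2 lower) and 347, and on the authors' filtered table, which is also the fit to the counts recovered from the signal table, 0 (0 higher, 0 lower) and 13. DESeq2 called 6 (3 higher, 3 lower) and 617, and limma-voom 2 (0 higher, 2 lower) and 148. The cause of these shifts was not tested. The median log2 fold change of the tested exocytosis genes was 0.056 in limma-voom and -0.240 under total counts alone, where the median of all genes also moved, to -0.278. Under that scaling *Sytl1* stood at -0.047 and *Stxbp2* at -0.283, opposite in sign to the main values, and at 0.23 and -0.005 relative to the median of all genes. Relative to that median, *Snap23* was at -0.99, *Unc13b* at -0.84, *Stx3* at -0.60, *Rab3d* at 0.44 and *Snph* at 2.49. Leaving out each library in turn gave 0 to 5 calls in edgeR (0 to 2 higher, 0 to 3 lower), 0 to 441 over all genes, and a median from 0.011 to 0.074. Calls remained only without WT replicate 2 (*Stx3*, *Snap23*, *Unc13b*, *Snph*) and without DKO replicate 4 (the same 4 and *Rab3d*). In DESeq2 this was added after seeing the data. There, leave-one-out gave 3 to 8 calls (1 to 4 higher, 2 to 4 lower). Over all genes it gave 266 to 888, with 307 without WT replicate 3. *Snap23*, *Unc13b* and *Snph* were called in all 9 such fits, *Rab3d* in 8, and *Rab26* and *Stx3* in 3 each. *Rab27a* ranged from -0.148 to 0.114 and *Stxbp2* from -0.066 to 0.107, crossing 0. A fit with the replicate block called 0 exocytosis genes (0 higher, 0 lower) and 0 of all genes. The numbers mark different mice. Libraries of the same number correlated in their deviations from the group means at 0.15, 0.298, 0.0739 and 0.0137. WT 1 and WT 2 correlated best with their own number, and WT 3 and WT 4 with DKO 5. The labels do not give the numbers as pairs, so the main fit has no block. Whether some WT and DKO mice share a litter was not tested. The other results among the 12 genes kept their direction under all settings. Depth limits the genes under about 1 CPM most, such as *Snph* with 4 to 94 reads.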

Other observations

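The exocyst, the complex that tethers vesicles to the membrane, was close to WT throughout. Its 8 further subunits were all tested, 2 on average higher and 6 lower, with log2 fold changes from -0.26 (*Exoc6*, SE 0.13) to 0.27 (*Exoc8*, SE 0.23), and neither edgeR nor DESeq2 called any, with 0 at an unadjusted edgeR p below 0.05. The list of granule membrane proteins also counted *Bhlha15*, an acinar factor that is not a membrane protein (log2 fold change 0.38, SE 0.22). Its genes were mostly on average higher, 10 of the 11 tested, with a median log2 fold change of 0.15. Of them, 0 were called by edgeR or DESeq2. Some membrane proteins of the list had small standard errors, such as the tetraspanin *Cd63* at 181 ± 9.87 CPM in the 4 WT and 201 ± 19.2 CPM in the 5 DKO libraries (mean ± SD, log2 fold change 0.15, SE 0.10), *Sypl* (0.11, SE 0.10) and *Scamp1* (0.10, SE 0.10). Of this list, *Sypl2* alone was below 0.05 before adjustment in edgeR, with a log2 fold change of 0.97 (SE 0.36) and an adjusted p of 0.234.

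Among further processing enzymes, *Pam*, which amidates peptides, had a log2 fold change of 0.44 with an unadjusted p of 0.0131 in edgeR (adjusted p = 0.201), opposite in sign to *Cpe*. The difference between these genes was not tested.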
